A study of Oryza sativa with 7 samples.

Results

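Leaf and young panicle of rice (Oryza sativa, cultivar Ilmi) were compared through 4 of the 7 RNA sequencing libraries of the study, 2 per tissue. The libraries were chosen by their tissue label alone. Leaf libraries came from leaves at 14 days, and panicle libraries from flowers before pollination, on panicles of 0.5 to 1.5 cm. All of them share the cultivar, and the labels name no treatment, mutation or transgene in any group. The other 3 libraries, 1 of root and 2 of seed, entered the estimate of the spread, the filter that decided which loci were tested, and the checks of tissue identity. Whether the libraries of a tissue came from separate plants or from pools is not in the labels, and p-values here cover no more than the spread among the libraries, which may be technical.

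The leaf is the organ of photosynthesis. Its chloroplast proteins are largely encoded in the nucleus, and their genes are driven in part by GOLDEN2-LIKE (GLK) transcription factors as plastids turn green. The rice panicle is a branched inflorescence whose meristems, the growing tips kept undifferentiated by KNOX homeobox factors, end in spikelets. In the spikelet the identity of each organ is set by combinations of MADS-box transcription factors, grouped in classes A to E, and YABBY factors pattern lateral organs. The comparison was read through nuclear loci of both programmes.

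The files give locus IDs with no gene names. Of 159 loci on 18 lists of chloroplast, flower, meristem and marker genes, 105 could be paired with a RefSeq gene symbol. A recalled symbol or synonym had to match a single RefSeq gene on the same chromosome. Order along the chromosome was only checked afterwards. The other 54 were left without a name and out of all counts. Of the 105, 103 passed the filter on low counts and were tested. The name of a locus is therefore indirect evidence of its identity. The lists were drawn up with earlier results of these data known, so their direction is not independent evidence.

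Total counts over exon bins, the deposited stretches of exon, were 22218323 and 49312943 in leaf 1 and leaf 2, and 19717360 and 16139784 in panicle 1 and panicle 2. Levels are given as CPM, counts scaled to the library size after TMM correction. The TMM factor was 0.789 for leaf 1, 0.781 for leaf 2, 1.51 for panicle 1 and 1.44 for panicle 2. Fold changes are leaf over panicle, so a negative log2 value means a higher level in panicle, and a call needs an edgeR adjusted p under 0.05 and a change of at least 2-fold. Levels were set against each other between libraries only and never between genes, because gene lengths are not in the files. In whole tissue, fewer cells of a type and less RNA per cell cannot be told apart.

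The markers of the other tissues were low in all 4 libraries, with 1 exception. The seed storage protein locus GluA had 1.2 and 0.675 CPM in leaf and 1.37 and 1.12 CPM in panicle, while seed held 45600 and 109000 CPM. The starch synthase locus Wx had 0.171 and 0.312 CPM in leaf and 0.101 and 0 CPM in panicle, while seed held 4830 and 2930 CPM. Lsi2, a silicon efflux carrier of roots, had 0.114 and 0.156 CPM in leaf and no count in panicle, with 261 CPM in root. Lsi1, the matching influx channel, was the exception, with 9.81 and 15.1 CPM in leaf and 0.0335 and 0.173 CPM in panicle, and 290 CPM in root. It was higher in leaf (log2 fold change 6.94, SE 0.68, edgeR adjusted p = 0.00082), and its part in other results was not tested.

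Leaf and panicle libraries differed at 8040 of 26784 tested loci, or 30.0%. Of the tested loci, 21.3% were called higher in leaf and 8.75% higher in panicle, and these shares are the background for the counts of named loci that follow. The filter took in loci through root or seed, and 475 tested loci had no count in leaf or panicle. With the leaf and panicle libraries alone 23080 loci were tested, of which 27% were called higher in leaf and 18.2% higher in panicle. The libraries of the tissues did not overlap at 73.9% of tested loci, so a lack of overlap is common here. The median log2 fold change over all tested loci was 0.08. Leaf was the higher tissue at 70.8% of called loci. That share was 60.1% once the 100 most abundant loci were left out, a step that moved the median of all loci to -0.07, and 59.7% with the leaf and panicle libraries alone in the fit. It was 90.4% when leaf 1 was left out and 88.4% when leaf 2 was, as calls towards panicle fell to 350 and 405. Leaving out leaf 1 gave 3647 calls in all and leaving out leaf 2 gave 3481. With panicle 1 left out there were 4335, and with panicle 2 left out 4401.

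Of the 30 chloroplast loci with a name, 29 were higher in leaf and none was higher in panicle (edgeR), with a median log2 fold change of 6.12. Together they held 6.87% and 8.2% of all bin counts in leaf and 0.117% and 0.125% in panicle, before any scaling. No leaf library overlapped a panicle library at any of the 30. None of the 29 called loci changed direction in an alternative that tested it. The alternative without the 100 most abundant loci left out 7 of them, RCA, the 4 light-harvesting loci, GS2 and Fd-GOGAT.

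**Figure D1:**
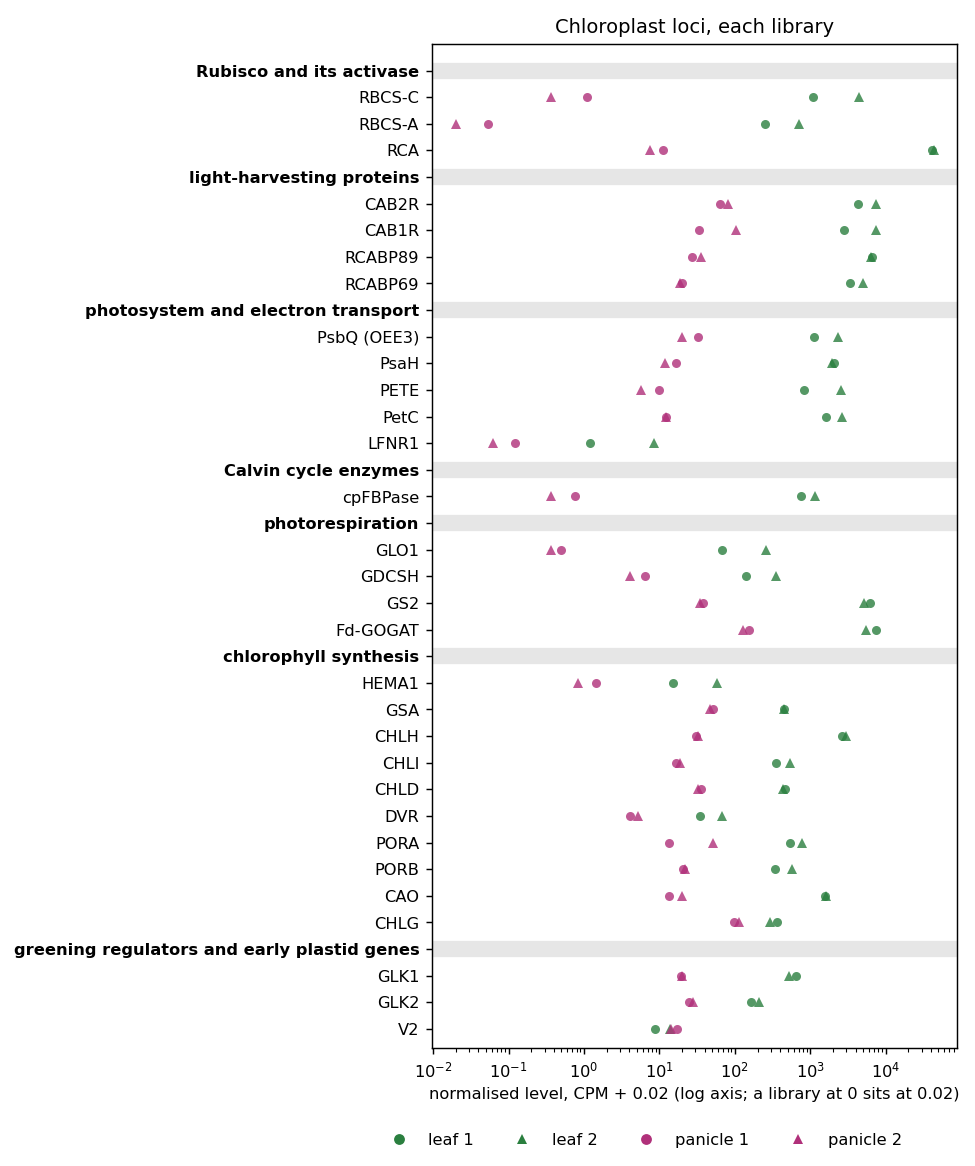
Level of each of the 30 chloroplast loci in each library, in CPM plus 0.02 on a log axis, with leaf in green and panicle in purple, circles for library 1 and triangles for library 2. Leaf points lie to the right of panicle points in every row except V2, the last.

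The loci of carbon fixation had the largest fold changes of the 30. RCA, the activase that removes inhibitors from Rubisco, had 41100 and 43100 CPM in leaf against 11 and 7.55 CPM in panicle. The leaf libraries were close to each other and far above both panicle libraries (log2 fold change 12.15, SE 0.76, edgeR adjusted p = 0.000369). RBCS-C, a Rubisco small subunit locus, had 1080 and 4450 CPM in leaf against 1.07 and 0.345 CPM in panicle. Its log2 fold change was 11.89 (SE 1.14, edgeR adjusted p = 0.00076), although leaf 2 stood well above leaf 1. RBCS-A, a second small subunit locus, had 249 and 702 CPM in leaf and 1 count in all in panicle. The ratio was 25200, with 95% counting limits of 4520 and 996000 (edgeR adjusted p = 0.000372). The small subunit loci are near-identical copies, and reads may have been split between them or lost. The Calvin cycle enzyme cpFBPase, which releases phosphate from fructose bisphosphate, had 753 and 1140 CPM in leaf against 0.737 and 0.345 CPM in panicle, again without overlap (log2 fold change 10.73, SE 0.72, edgeR adjusted p = 0.000372).

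All 4 light-harvesting loci and all 5 loci of the photosystems and electron transport were higher in leaf, with medians of 7.02 and 7.13 on the log2 scale. CAB2R, a chlorophyll a/b-binding protein of the light-harvesting antenna, had 4310 and 7460 CPM in leaf against 62.9 and 81.6 CPM in panicle. CAB1R, of the same antenna, had 2760 and 7360 CPM in leaf against 33.4 and 104 CPM in panicle. Panicle 2 was above panicle 1 at both, and leaf 2 was above leaf 1. RCABP89 had 6510 and 6460 CPM in leaf against 27.1 and 35.5 CPM in panicle. RCABP69 had 3340 and 4990 CPM in leaf against 19.9 and 18.5 CPM in panicle. Log2 fold changes of the antenna loci ran from 6.21 to 7.76, and leaf libraries were above panicle libraries at each.

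In the electron transport chain, PsaH, a photosystem I subunit, had 2040 and 1930 CPM in leaf against 16.6 and 11.8 CPM in panicle (log2 fold change 7.13, SE 0.48, edgeR adjusted p = 0.000372). PetC, the Rieske iron-sulphur protein of the cytochrome b6f complex, had 1620 and 2650 CPM in leaf and 12.2 CPM in each panicle library. Both leaf libraries were far above both panicle libraries at these loci. PETE, the electron carrier plastocyanin, had 815 and 2530 CPM in leaf against 9.95 and 5.61 CPM in panicle. PsbQ, of the oxygen-evolving complex, had 1110 and 2310 CPM in leaf against 32.8 and 19.7 CPM in panicle. At both, leaf 2 was above leaf 1, and no panicle library came near either. LFNR1, a ferredoxin-NADP reductase, had 1.2 and 8.34 CPM in leaf against 0.101 and 0.0431 CPM in panicle. Its call (log2 fold change 5.92, SE 1.23, edgeR adjusted p = 0.0131) was lost without leaf 2, panicle 1 or panicle 2, with adjusted p of 0.12, 0.0617 and 0.0716 in a range over alternatives of 0.000372 to 0.12, and its log2 fold change was 3.92 without leaf 2.

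The 4 photorespiration loci were also higher in leaf, with a median of 6.4. Fd-GOGAT, the ferredoxin-dependent glutamate synthase that returns photorespiratory ammonium to glutamate, had 7340 and 5560 CPM in leaf against 153 and 127 CPM in panicle. GS2, the chloroplast glutamine synthetase of the same cycle, had 6160 and 5170 CPM in leaf against 38.2 and 34.8 CPM in panicle. At both, leaf 1 was the higher leaf library and the tissues were well apart. GLO1, a glycolate oxidase, had 68.6 and 260 CPM in leaf against 0.469 and 0.345 CPM in panicle (log2 fold change 8.62, SE 1.43, edgeR adjusted p = 0.00545). GDCSH, the H protein of glycine decarboxylase, had 140 and 347 CPM in leaf against 6.47 and 4.1 CPM in panicle (log2 fold change 5.52, SE 0.56, edgeR adjusted p = 0.00092). For these 2 loci leaf 2 was the higher leaf library.

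All 10 loci of chlorophyll synthesis were higher in leaf, by log2 values of 1.63 to 6.57 with a median of 4.37, smaller than the medians of the antenna and photosystem lists. The 1.63 is that of CHLG, the last enzyme of the pathway, with 365 and 292 CPM in leaf against 97 and 115 CPM in panicle, whose call (edgeR adjusted p = 0.0172) was lost when any of leaf 1, leaf 2, panicle 1 and panicle 2 was left out (0.103, 0.0642, 0.139 and 0.0921, in a range over alternatives of 0.000262 to 0.139). CHLH, a magnesium chelatase subunit at the entry to the chlorophyll branch, had 2660 and 3000 CPM in leaf against 30.5 and 32.5 CPM in panicle. CAO, which makes chlorophyll b, had 1580 and 1600 CPM in leaf against 13.2 and 20.2 CPM in panicle. For both, replicate libraries lay close together and the tissues far apart (log2 fold changes 6.49 and 6.57, SE 0.4 and 0.43, edgeR adjusted p = 0.000369 and 0.000372). CHLD, the chelatase D subunit, was at 463 and 434 CPM in leaf against 35.6 and 32 CPM in panicle. GSA, which makes the tetrapyrrole precursor 5-aminolevulinate, was at 448 and 450 CPM in leaf against 52.1 and 46.3 CPM in panicle. Both panicle libraries lay well below both leaf libraries, yet CHLD had 1063 and 742 counts there and GSA 1554 and 1074. PORB, a protochlorophyllide oxidoreductase, had 339 and 565 CPM in leaf against 20.6 and 21.9 CPM in panicle, without overlap. Its relative PORA had 532 and 781 CPM in leaf against 13.3 and 51.8 CPM in panicle, where the panicle libraries were unequal. The call of PORA (log2 fold change 4.33, edgeR adjusted p = 0.0143) was lost without leaf 1, leaf 2 or panicle 1, with adjusted p of 0.0523, 0.0706 and 0.0622 in a range over alternatives of 1.96e-06 to 0.0706.

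Of the 3 loci for greening regulators and early plastid genes, 2 were higher in leaf. GLK1, a transcription factor that drives chloroplast development, had 648 and 528 CPM in leaf against 19.3 and 20 CPM in panicle (log2 fold change 4.9, SE 0.32, edgeR adjusted p = 0.000372). GLK2, its partner, had 162 and 211 CPM in leaf against 24.8 and 27.5 CPM in panicle (log2 fold change 2.83, SE 0.29, edgeR adjusted p = 0.000928). Both were thus detected in panicle, at nearly equal levels in its 2 libraries. V2, a guanylate kinase of plastids and mitochondria needed in early leaf greening, was the chloroplast locus without a call, at 8.84 and 14 CPM in leaf against 16.9 and 14.1 CPM in panicle. The libraries of the tissues only just failed to overlap (log2 fold change -0.44, SE 0.53, edgeR adjusted p = 0.563).

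In the other direction, 16 of the 17 floral organ identity MADS-box loci were higher in panicle and none was higher in leaf, against 8.75% of all tested loci. Their median log2 fold change was -7.74, and it was the same when loci with 0 to 3 counts in leaf were set at their bound or counting ratio. All 17 together held 0.00234% and 0.00225% of bin counts in leaf and 0.331% and 0.257% in panicle.

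**Figure D2:**
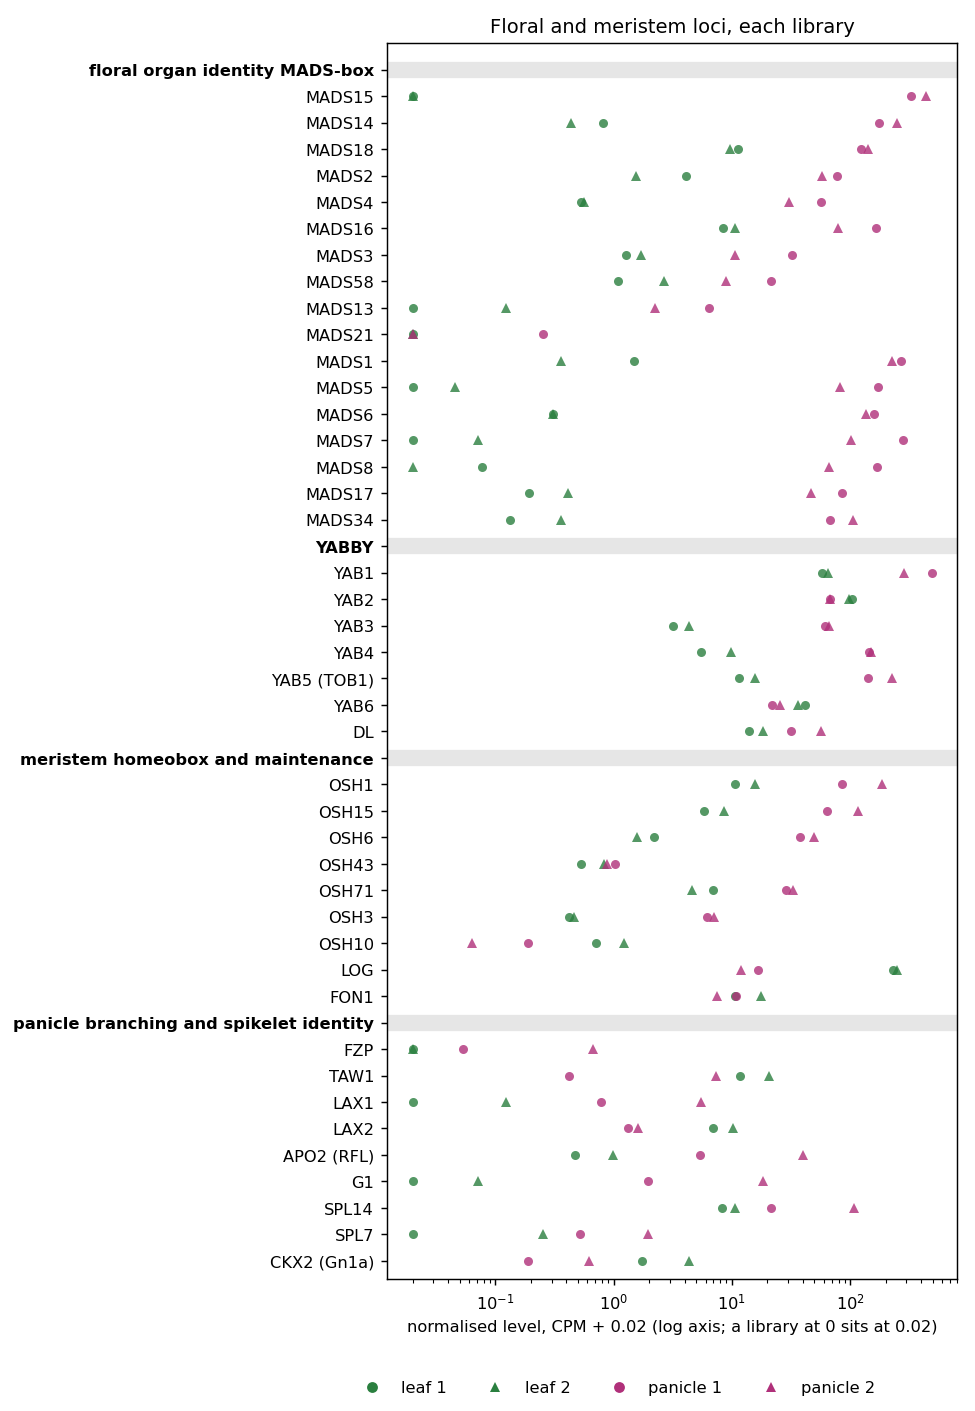
Level of each floral MADS-box, YABBY, meristem and branching locus in each library, in CPM plus 0.02 on a log axis, with leaf in green and panicle in purple, circles for library 1 and triangles for library 2. Panicle points lie to the right for nearly all MADS-box rows, while YABBY, meristem and branching rows are mixed and the branching rows show panicle 2 to the right of panicle 1.

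The APETALA1 and FRUITFULL-like loci, of the group that marks the switch to flowering and the outer organs, were high in panicle. MADS15 had no count in leaf and 325 and 441 CPM in panicle, so that it was higher in panicle by at least 7150-fold, taking 3 counts over both leaf libraries as the floor (edgeR adjusted p = 0.000369). MADS14 had 0.798 and 0.416 CPM in leaf and 175 and 251 CPM in panicle (log2 fold change -8.51, SE 0.57, edgeR adjusted p = 0.000372). MADS18 had 11.3 and 9.69 CPM in leaf and 123 and 142 CPM in panicle (log2 fold change -3.66, SE 0.34, edgeR adjusted p = 0.000673). The tissues did not overlap at any of these loci, and MADS18 had 199 and 373 counts in leaf. Panicle 2 was above panicle 1 at all 3.

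The SEPALLATA-like loci, whose proteins join the other classes in organ identity complexes, were close to 0 in leaf. MADS1, known for lemma and palea identity, had 1.48 and 0.338 CPM in leaf and 269 and 226 CPM in panicle (log2 fold change -8.19, SE 0.87, edgeR adjusted p = 0.00104). MADS34 had 0.114 and 0.338 CPM in leaf and 68.1 and 105 CPM in panicle (log2 fold change -8.4, SE 0.71, edgeR adjusted p = 0.000538). MADS34 was again higher in panicle 2, and MADS1 in panicle 1. MADS5 had 1 count in leaf and 171 and 82.6 CPM in panicle, a ratio of panicle to leaf of 7100 with 95% counting limits of 1270 and 280000. MADS7 had 2 counts in leaf and 278 and 101 CPM in panicle, a ratio of 5310 with an interval of 1470 to 43900. MADS8 had 1 count in leaf and 168 and 66 CPM in panicle, a ratio of 6570 with an interval of 1180 to 259000. At these last 3 loci panicle 1 was more than 2-fold above panicle 2. The AGL6-like loci MADS6 and MADS17, of a class that acts beside the SEPALLATA-like proteins, were also higher in panicle. MADS6 had 0.285 and 0.286 CPM in leaf and 161 and 136 CPM in panicle, and MADS17 had 0.171 and 0.39 CPM in leaf and 85.4 and 46.4 CPM in panicle.

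All 5 loci of classes B and C, the inner organ classes, were higher in panicle. Of the class B loci, for lodicules and stamens, MADS2 had 4.11 and 1.53 CPM in leaf and 77.9 and 57.4 CPM in panicle. MADS4 had 0.513 and 0.546 CPM in leaf and 56.8 and 30.3 CPM in panicle. MADS16 had 8.38 and 10.7 CPM in leaf and 166 and 79.7 CPM in panicle. All 3 were called without overlap, with log2 fold changes of -4.61, -6.34 and -3.68 (edgeR adjusted p = 0.00142, 0.00273 and 0.00355), and panicle 1 was the higher panicle library. Of the class C loci, for stamens and carpels, MADS3 had 1.25 and 1.69 CPM in leaf and 32 and 10.7 CPM in panicle. MADS58 had 1.08 and 2.65 CPM in leaf and 21.6 and 8.84 CPM in panicle. The call of MADS3 (log2 fold change -3.84, edgeR adjusted p = 0.00666) was lost without leaf 1 or leaf 2, with adjusted p of 0.0671 and 0.059 in a range of 4.16e-08 to 0.0671. That of MADS58 (log2 fold change -2.99, edgeR adjusted p = 0.0284) was lost without leaf 1, leaf 2 or panicle 1, with adjusted p of 0.164, 0.0865 and 0.0951 in a range of 0.00036 to 0.164.

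Of the 2 class D loci, known for ovule identity, 1 was called. MADS13 had 0 and 0.104 CPM in leaf and 6.44 and 2.24 CPM in panicle (log2 fold change -5.89, SE 0.85, edgeR adjusted p = 0.00328). MADS21 had no count in leaf and 7 counts in panicle, all in panicle 1, so the tissues overlapped at 0. It was not called (edgeR adjusted p = 0.127), and without panicle 2 its adjusted p was 0.0313, in a range over alternatives of 0.0313 to 1.

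Of the 6 tested MADS-box loci of vegetative and flowering-time regulation, 3 were higher in leaf and none was higher in panicle. MADS47, of the SVP-like group of flowering repressors, had 133 and 105 CPM in leaf and 0.369 and 4.87 CPM in panicle. It was far higher in leaf (log2 fold change 5.52, SE 1.06, edgeR adjusted p = 0.00982), with panicle 2 at 13.2-fold the level of panicle 1, and its adjusted p without leaf 1 was 0.0503 in a range of 7.66e-08 to 0.0503. MADS57, linked to tiller outgrowth, had 8.15 and 9.27 CPM in leaf and 0.101 and 0.259 CPM in panicle (log2 fold change 5.6, SE 0.68, edgeR adjusted p = 0.00165). MADS50, a SOC1-like flowering activator, had 70.4 and 49.1 CPM in leaf and 10.4 and 14.5 CPM in panicle (log2 fold change 2.26, edgeR adjusted p = 0.0201). The call of MADS50 was lost when leaf 1, leaf 2, panicle 1 or panicle 2 was left out, with adjusted p of 0.13, 0.0742, 0.134 and 0.0795 in a range of 0.00067 to 0.134.

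The remaining SVP-like and SOC1-like loci were not called. MADS22 had 174 and 173 CPM in leaf and 24 and 78.5 CPM in panicle, without overlap (log2 fold change 1.76, SE 0.59, edgeR adjusted p = 0.0643). Without panicle 2 it had a log2 fold change of 2.73 and an adjusted p of 0.027, in a range of 0.0227 to 0.247. MADS55 had 53.8 and 31.1 CPM in leaf and 9.45 and 94 CPM in panicle, so that both leaf libraries lay between the panicle libraries. Its log2 fold change of -0.29 (edgeR adjusted p = 0.859) became 2.05 without panicle 2 and 0.06 without leaf 2, with adjusted p of 0.147 and 1 in a range of 0.147 to 1. MADS56 had 78.9 and 63.1 CPM in leaf and 70.6 and 56.3 CPM in panicle, with partial overlap (log2 fold change 0.16, SE 0.38, edgeR adjusted p = 0.777). The florigen locus Hd3a and the flowering regulator Hd1 had no count in any of the 4 libraries, and Hd1 was not tested.

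YABBY loci were divided. Of 7, 4 were higher in panicle, none was higher in leaf, and 3 were not called. YAB1 had 58.3 and 64.8 CPM in leaf and 489 and 288 CPM in panicle (log2 fold change -2.66, edgeR adjusted p = 0.00943). YAB3 had 3.19 and 4.29 CPM in leaf and 61.8 and 65.9 CPM in panicle (log2 fold change -4.09, SE 0.35, edgeR adjusted p = 0.000577). At both, each panicle library was above each leaf library. YAB4 had 5.42 and 9.87 CPM in leaf and 146 and 151 CPM in panicle (log2 fold change -4.27, edgeR adjusted p = 0.00479). TOB1, also called YAB5 and known to maintain the spikelet meristem from the lateral organs, had 11.6 and 15.7 CPM in leaf and 141 and 225 CPM in panicle (log2 fold change -3.74, edgeR adjusted p = 0.0124). No leaf library overlapped a panicle library at these 4. Without leaf 1 the adjusted p was 0.0842 for YAB1, 0.0543 for YAB4 and 0.117 for TOB1, and without leaf 2 it was 0.0768 for YAB1 and 0.0963 for TOB1. Their ranges over alternatives were 7.46e-07 to 0.0842, 2.5e-09 to 0.0543 and 1.37e-05 to 0.117.

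The 3 YABBY loci without a call also showed no overlap. YAB2 had 104 and 97.1 CPM in leaf and 68.2 and 67.2 CPM in panicle (log2 fold change 0.57, edgeR adjusted p = 0.224). YAB6 had 41.5 and 36.5 CPM in leaf and 21.8 and 25.7 CPM in panicle (log2 fold change 0.72, edgeR adjusted p = 0.106). Both had their higher values in leaf. DL, which specifies carpels and forms the leaf midrib, had 14.1 and 18.2 CPM in leaf and 31.8 and 56.8 CPM in panicle (log2 fold change -1.45, SE 0.96, edgeR adjusted p = 0.286). The fit of leaf and panicle libraries alone called DL higher in panicle, with an adjusted p of 0.00977 in a range of 0.00977 to 0.585.

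**Figure D3:**
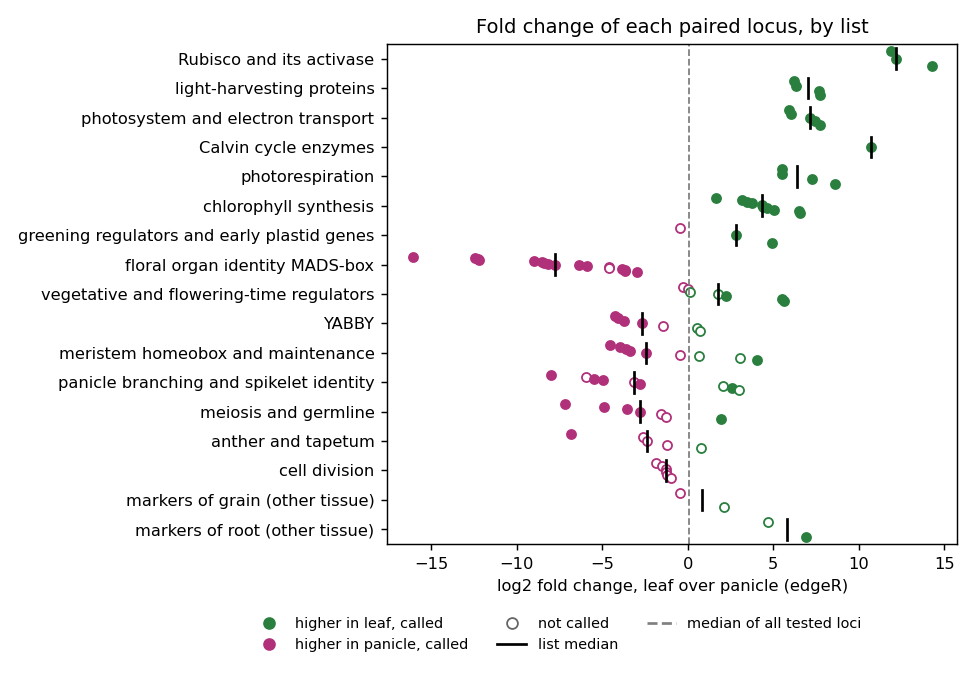
Log2 fold change of leaf over panicle for each tested locus with a name, by list. Filled points were called, open points were not, black bars are list medians and the dashed line is the median of all tested loci at 0.08. Loci with 0 to 3 counts in a tissue stand at the fitted value, which is no bound. The chloroplast lists lie to the right, the MADS-box list to the left, and the cell division list is open throughout.

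Of the 9 meristem loci, 5 were higher in panicle, 1 was higher in leaf and 3 were not called, with a median of -2.43. OSH1, the KNOX factor that marks undifferentiated meristem cells, had 10.7 and 15.6 CPM in leaf and 86.2 and 186 CPM in panicle (log2 fold change -3.37, SE 0.47, edgeR adjusted p = 0.00275). OSH15, a related KNOX factor that acts in internodes, had 5.82 and 8.65 CPM in leaf and 63.5 and 116 CPM in panicle (log2 fold change -3.63, SE 0.46, edgeR adjusted p = 0.00204). Panicle 2 was the higher panicle library at both, and leaf values were not zero. OSH6 had 2.17 and 1.56 CPM in leaf and 37.4 and 49.3 CPM in panicle (log2 fold change -4.55, SE 0.42, edgeR adjusted p = 0.000664). OSH71 had 6.9 and 4.55 CPM in leaf and 28.6 and 32.9 CPM in panicle (log2 fold change -2.43, SE 0.36, edgeR adjusted p = 0.00376). The fifth called locus, the KNOX locus OSH3, had 0.399 and 0.442 CPM in leaf and 6.2 and 7.03 CPM in panicle. Its call was lost without leaf 1, leaf 2 or panicle 2 (edgeR adjusted p = 0.129, 0.127 and 0.0542, against 0.0194 with all libraries, in a range of 0.000693 to 0.129).

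Of the 3 meristem loci without a call, 2 were KNOX loci. OSH43 had 0.513 and 0.805 CPM in leaf and 1.01 and 0.863 CPM in panicle (log2 fold change -0.48, edgeR adjusted p = 0.628). OSH10 had 0.684 and 1.2 CPM in leaf and 0.168 and 0.0431 CPM in panicle (log2 fold change 3.06, SE 1.23, edgeR adjusted p = 0.102). The KNOX loci thus did not all have their higher values in panicle, and the fit of leaf and panicle libraries alone called OSH10 higher in leaf (adjusted p = 0.0194, in a range of 0.0194 to 0.346). LOG, the enzyme that makes active cytokinin and was found through its role in the rice shoot meristem, had 229 and 249 CPM in leaf and 16.7 and 11.9 CPM in panicle. It was higher in leaf without overlap (log2 fold change 4.06, SE 0.36, edgeR adjusted p = 0.000603) and was the 1 meristem locus called in that direction with all libraries in the fit. FON1, a CLAVATA1-like receptor kinase that limits floral meristem size, had 10.7 and 17.7 CPM in leaf and 10.9 and 7.5 CPM in panicle, with overlap (edgeR adjusted p = 0.325).

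Of the 9 branching and spikelet loci, 4 were higher in panicle, 1 was higher in leaf and 4 were not called. All 9 had more CPM in panicle 2 than in panicle 1. SPL14, the squamosa promoter binding protein of Ideal Plant Architecture 1, had 8.27 and 10.7 CPM in leaf and 21.4 and 109 CPM in panicle (log2 fold change -2.78, edgeR adjusted p = 0.0281). APO2, the rice LEAFY homologue, had 0.456 and 0.961 CPM in leaf and 5.4 and 40.2 CPM in panicle (log2 fold change -4.95, edgeR adjusted p = 0.0196). Leaf values lay below both panicle values, but the panicle libraries were 5.08-fold and 7.46-fold apart. G1, which keeps the sterile lemma from becoming a lemma, had 2 counts in leaf and 1.94 and 18.4 CPM in panicle. The ratio of panicle to leaf was 285 with 95% counting limits of 78.8 and 2350 (edgeR adjusted p = 0.0153). LAX1, a bHLH factor of axillary meristems, had 0 and 0.104 CPM in leaf and 0.771 and 5.43 CPM in panicle (log2 fold change -5.47, edgeR adjusted p = 0.0409). LAX2, which acts with LAX1, went the other way, with 6.9 and 10.3 CPM in leaf and 1.31 and 1.6 CPM in panicle (log2 fold change 2.57, SE 0.59, edgeR adjusted p = 0.0187). TAW1, which delays the shift to spikelet identity, had 11.7 and 20.5 CPM in leaf and 0.402 and 7.33 CPM in panicle and was not called (edgeR adjusted p = 0.211). With a replicate block in the fit, TAW1 was called higher in leaf (log2 fold change 2.93, edgeR adjusted p = 0.037).

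All 5 branching calls were lost when either leaf library was left out, while log2 fold changes kept their direction. Without leaf 1 and without leaf 2 they were -2.61 and -2.97 for SPL14, -4.56 and -5.62 for APO2, -7.47 and -10.64 for G1, -4.82 and -8.93 for LAX1, and 2.82 and 2.25 for LAX2. Those of G1 and LAX1, with 2 and 4 counts in leaf, are fitted values and no bounds. Without leaf 1 and without leaf 2 the edgeR adjusted p was 0.167 and 0.135 for SPL14, 0.138 and 0.106 for APO2, 0.105 and 0.0975 for G1, 0.183 and 0.127 for LAX1, and 0.0677 and 0.125 for LAX2. Without panicle 2 the log2 fold change was -1.3 for SPL14, -3.02 for APO2 and -3.62 for LAX1, with adjusted p of 0.121, 0.0917 and 0.174. LAX2 was also not called without panicle 1 or panicle 2 (0.115 and 0.0855), nor was G1 with DESeq2 (0.0796). TAW1 without panicle 2 had a log2 fold change of 5.18 and an adjusted p of 0.0201, in a range of 0.0201 to 0.499. The lowest adjusted p over alternatives was 0.000628 for SPL14, 6.87e-05 for APO2, 0.00196 for G1, 0.0116 for LAX1 and 0.00119 for LAX2. The list median was -3.12, and -2.78 with loci of 0 to 3 counts in leaf at their bound or ratio.

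Of the 7 meiosis and germline loci, 4 were higher in panicle, 1 was higher in leaf and 2 were not called, and all 7 had more CPM in panicle 1 than in panicle 2. MEL1, an Argonaute of premeiotic germ cells, had 1.31 and 1.4 CPM in leaf and 257 and 132 CPM in panicle (log2 fold change -7.15, SE 0.49, edgeR adjusted p = 0.000372). MSP1, a receptor kinase that limits the number of cells entering sporogenesis, had 2.4 and 3.2 CPM in leaf and 98.3 and 70.8 CPM in panicle (log2 fold change -4.91, SE 0.37, edgeR adjusted p = 0.000404). PAIR2, needed for pairing of homologous chromosomes, had 9.92 and 7.61 CPM in leaf and 125 and 77.5 CPM in panicle (log2 fold change -3.53, SE 0.39, edgeR adjusted p = 0.00118). At each of these loci both panicle libraries were well above both leaf libraries. ZEP1, a protein of the synaptonemal complex, had 1.71 and 1.22 CPM in leaf and 11.1 and 9.23 CPM in panicle (log2 fold change -2.8, edgeR adjusted p = 0.0235). PAIR3, a chromosome axis protein, had 9.3 and 6.96 CPM in leaf and 20.3 and 19.2 CPM in panicle (edgeR adjusted p = 0.217). The fit of leaf and panicle libraries alone called PAIR3 higher in panicle (log2 fold change -1.37, edgeR adjusted p = 0.00759). DMC1A, a recombinase of meiotic crossing over, had 7.24 and 8.6 CPM in leaf and 2.82 and 1.34 CPM in panicle, higher in leaf (log2 fold change 1.92, edgeR adjusted p = 0.0306).

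The calls of ZEP1 and DMC1A were lost when any 1 of leaf 1, leaf 2, panicle 1 and panicle 2 was left out, with edgeR adjusted p of 0.112, 0.153, 0.0674 and 0.0508 for ZEP1 and 0.107, 0.14, 0.0523 and 0.166 for DMC1A. Taking only the largest bin of a locus, DMC1A had a log2 fold change of 0.92 and an adjusted p of 0.294. The lowest adjusted p over alternatives was 0.000523 for ZEP1 and 0.00431 for DMC1A. DMC1A has a near-identical copy, DMC1B, and reads may have been split between them or lost.

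Among the 5 anther loci, 1 was called, TIP2, a bHLH factor of early tapetum differentiation. It had 0 and 0.208 CPM in leaf and 23.3 and 6.77 CPM in panicle (log2 fold change -6.83, SE 1.13, edgeR adjusted p = 0.00544). The bHLH factors that act later in the tapetum were uneven between panicle libraries. TDR had 0.855 and 0.779 CPM in leaf and 7.47 and 1.08 CPM in panicle, and EAT1 had 0.342 and 0.208 CPM in leaf and 3.25 and 0.0431 CPM in panicle. Among the leaf and panicle libraries EAT1 was highest in panicle 1, where it had 97 counts against 1 in panicle 2. Without panicle 2 both passed, with log2 fold changes of -3.31 and -3.71 and edgeR adjusted p of 0.0364 and 0.037. With all libraries those were -2.39 and -2.62 with adjusted p of 0.11 and 0.227, and the ranges over alternatives were 0.0364 to 0.751 and 0.037 to 0.522. UDT1, another tapetum factor, had 1.71 and 1.92 CPM in leaf and 3.99 and 4.53 CPM in panicle (edgeR adjusted p = 0.103). The fit of leaf and panicle libraries alone called UDT1 higher in panicle (log2 fold change -1.31, edgeR adjusted p = 0.0411). GAMYB, a gibberellin-regulated MYB factor of anthers, had 0.399 and 0.623 CPM in leaf and 0.335 and 0.259 CPM in panicle (edgeR adjusted p = 0.567).

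**Figure D4:**
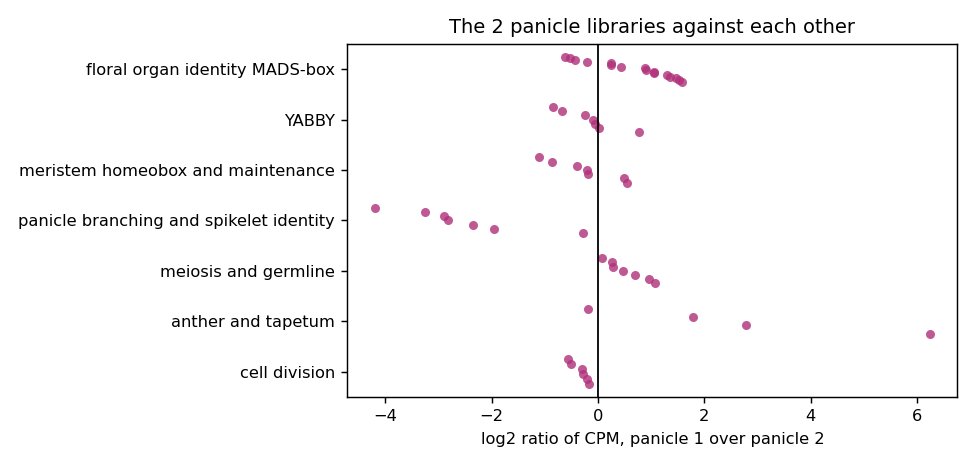
Log2 ratio of CPM of panicle 1 over panicle 2 for each named locus with a mean of at least 1 CPM in panicle and counts in both libraries, by list. Branching loci and cell division loci lie left of 0 (higher in panicle 2), meiosis loci lie right of 0 (higher in panicle 1), and MADS-box loci lie on both sides.

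The panicle libraries thus differed from each other along these lists. Of the 17 floral MADS-box loci, 13 were higher in panicle 1 and 4 in panicle 2, the 4 being MADS14, MADS15, MADS18 and MADS34. Over all 2344 loci called higher in panicle, 1150 were higher in panicle 2. A difference of at least 4-fold between replicates was seen at 162 of 13921 loci with a mean of 5 CPM or more in panicle, or 1.16%, and at 108 of 14894 such loci in leaf, or 0.725%. In leaf, 104 of the 108 were higher in leaf 2. The labels give 1 range of panicle length for both libraries, and differences in stage between them were not tested.

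None of the 6 cell division loci was called, although no leaf library overlapped a panicle library at any of them and all 6 had higher values in panicle. CDKB2;1, a mitotic cyclin-dependent kinase, had 56.4 and 64.3 CPM in leaf and 176 and 259 CPM in panicle (log2 fold change -1.85, SE 0.88, edgeR adjusted p = 0.155). PCNA, the sliding clamp of DNA replication, had 69.4 and 83.3 CPM in leaf and 193 and 236 CPM in panicle (log2 fold change -1.49, SE 0.46, edgeR adjusted p = 0.0502). Leaf values were thus far from 0 at both. CYCB1;1, a mitotic cyclin, had 57.3 and 64.3 CPM in leaf and 121 and 173 CPM in panicle. The mitotic cyclins CYCB2;1 and CYCB2;2 had 51.4 and 35.1 CPM and 62.3 and 58.1 CPM in leaf, against 94.8 and 106 CPM and 105 and 129 CPM in panicle. CDKB1;1, a second kinase of that type, had 40.7 and 43.1 CPM in leaf and 95 and 110 CPM in panicle. Log2 fold changes of the 6 ran from -1.85 to -0.96, with a median of -1.28. The seed libraries, which entered the estimate of the spread, were apart from each other at all 6. They had 17.8 and 0.739 CPM for CYCB2;2, and 31.5 and 11.9 CPM for PCNA. Their part in the missing calls was not tested. The fit of leaf and panicle libraries alone called all 6, with edgeR adjusted p of 0.0049 for CYCB1;1, 0.00543 for CYCB2;1, 0.007 for CYCB2;2, 0.00214 for CDKB1;1, 0.00151 for CDKB2;1 and 0.002 for PCNA, the lowest value of each over the alternatives, against highest values of 0.236 to 0.705. PCNA also passed with DESeq2 (adjusted p = 0.00522), with RLE factors (0.0387), without the count filter (0.0331), with the replicate block (0.0475) and without the 100 most abundant loci (0.0295).

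The reference loci were not called. EF1A, a translation elongation factor, had 365 and 258 CPM in leaf and 232 and 302 CPM in panicle, and ACT1, an actin, had 9.87 and 29.8 CPM in leaf and 15.4 and 28.7 CPM in panicle. Both overlapped between tissues, with log2 fold changes of 0.22 and -0.15 (edgeR adjusted p = 0.624 and 0.902) whose sign changed in some alternatives.

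Exon usage, the share of a locus's counts in each of its bins, was called at far fewer loci than level. Leaf 1 differed from leaf 2 in how counts were spread along loci. For each of 4843 loci with at least 5 bins and 200 counts in every library, a single number was taken. It was the share of counts in the lower-numbered bins minus the share in the higher-numbered bins. Over these loci it correlated at r = 0.862 between leaf 1 and leaf 2, and at 0.965 between panicle 1 and panicle 2. Leaf 1 correlated at 0.959 with root 1 and at 0.837 and 0.83 with the panicle libraries, while leaf 2 correlated at 0.952 and 0.965 with panicle and at 0.866 with root 1. The number does not compare single bins, loci are not independent, and these values are a description. Of the root markers, Lsi1 was at 9.81 CPM in leaf 1, 15.1 CPM in leaf 2 and 290 CPM in root, and Lsi2 at 0.114 CPM in leaf 1, 0.156 CPM in leaf 2 and 261 CPM in root. The cause of the likeness was not tested.

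In all, 42 of 18512 tested loci, or 0.227%, were called for usage, and none of the 91 named loci tested was among them (lowest adjusted p = 0.242). Calls fell to 7 when leaf 1 was left out and to 8 when leaf 2 was, and to 10 and 6 when panicle 1 and panicle 2 were. Among 79282 bins of 8687 loci with at least 200 counts in each of the 4 libraries, 414 moved by at least 10 percentage points between tissues without overlap, 149 of them larger in leaf and 265 larger in panicle. Without the overlap rule, 472 bins moved by that much between the tissue means. By comparison, 1767 bins differed by at least 10 points between the leaf libraries and 327 between the panicle libraries. Those were differences of single libraries, with no overlap rule. The median absolute difference in share was 0.951 points between tissue means. It was 1.46 points between the single leaf libraries and 0.852 points between the single panicle libraries. Means vary less than single libraries, so these values are not on equal terms.

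Of the named loci, 35 had at least 200 counts in every library, and their largest bin shift had a median of 3.85 points. A shift of at least 10 points without overlap was seen at 5 of them, or 14.3%, against 303 of all 8687 such loci, or 3.49%, and none of the 5 was called. A shift in points depends on how many bins share the counts, and CAB2R and PsaH have 3 bins each. The named loci were not matched to the others in number of bins, so the percentages are not on equal terms. Bin 6 of the 7 bins of PORB held 32.3% and 43.5% of counts in leaf and 55.7% and 51.6% in panicle. Bin 7 of the 8 bins of GLK2 held 51.3% and 38.6% in leaf and 37.1% and 29% in panicle. In these 2 loci leaf 1 lay furthest from panicle. Bin 7, the last of TOB1, held 27.6% and 16.5% in leaf and 8.99% and 11.5% in panicle, again with leaf 1 furthest away. The others were CAB2R, whose bin 2 held 47.7% and 60.7% in leaf and 70.5% and 63.5% in panicle, and PsaH, whose bin 3 held 32.3% and 36.9% in leaf and 44.3% and 47.6% in panicle. Leaf 1 lay furthest from panicle at CAB2R and PsaH too, and so at all 5 loci.

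**Figure D5:**
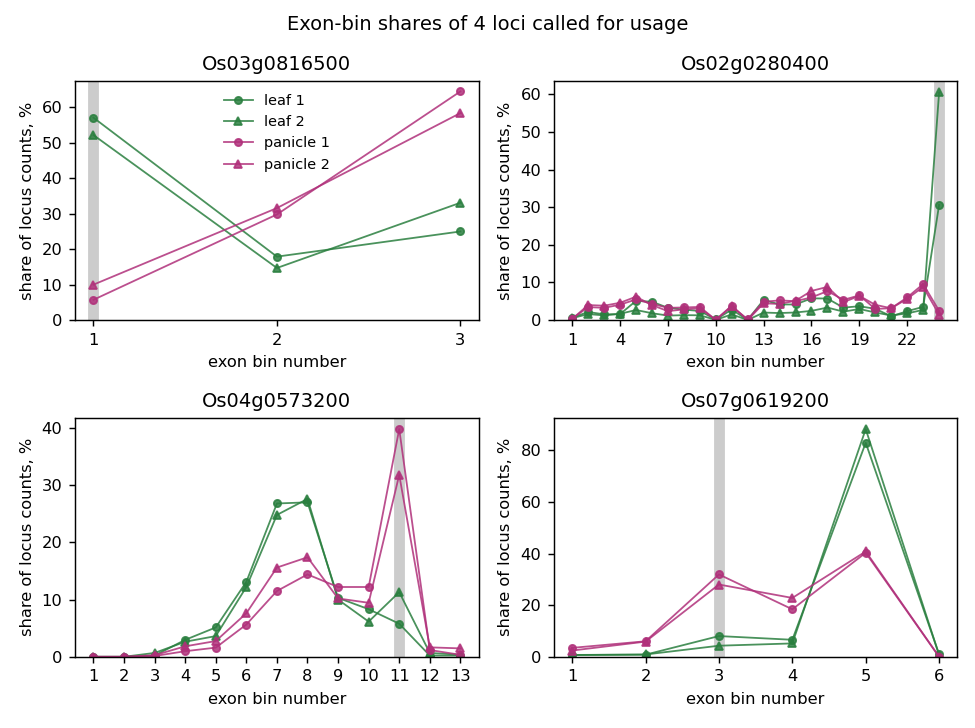
Share of each locus's counts in each exon bin, in percent, for 4 loci called for usage, with leaf in green and panicle in purple, circles for library 1 and triangles for library 2. Grey bands mark the called bin of each locus, where both leaf lines stand apart from both panicle lines.

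The called loci with the largest shifts have no name here and are given by ID. In Os03g0816500, bin 1 of 3 held 57.1% and 52.2% of counts in leaf against 5.73% and 10% in panicle, and bin 3 held 25% and 33.1% in leaf against 64.5% and 58.4% in panicle. Bin 2 held 17.9% and 14.7% in leaf against 29.8% and 31.6% in panicle. Only bin 1 of the 3 was called (log2 change in usage 2.82, edgeR adjusted p = 0.0129). Shares of a locus add up to the whole, so a larger share in bin 1 lowers those of the other bins. In Os02g0280400, bin 24, the last, held 30.6% and 60.5% in leaf against 2.47% and 1.46% in panicle (log2 change 4.61, edgeR adjusted p = 1.07e-11). The shift came from 582 and 3773 counts in that bin in leaf, against 50 and 19 in panicle, and the leaf libraries were themselves far apart.

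The other 2 loci had a bin with a larger share in panicle. In Os04g0573200, bin 11 of 13 held 5.78% and 11.3% in leaf against 39.8% and 31.8% in panicle, and bins 7 and 8 held 26.8% and 24.8%, and 27% and 27.6%, in leaf against 11.5% and 15.6%, and 14.4% and 17.4%, in panicle (log2 change of bin 11 -2.04, edgeR adjusted p = 0.0179). In Os07g0619200, bin 3 of 6 held 8.03% and 4.29% in leaf against 31.9% and 28% in panicle, and bin 5 held 82.9% and 88.2% in leaf against 40.3% and 40.8% in panicle (log2 change of bin 3 -2.3, edgeR adjusted p = 0.0179). At these bins of the 2 loci, replicates lay closer to each other than to the other tissue. Bins 7 and 8 of Os04g0573200 and bin 5 of Os07g0619200 were not called themselves, and their shares depend on those of the called bins. The calls of Os03g0816500, Os04g0573200 and Os07g0619200 were lost without any 1 of the 4 libraries, with lowest and highest adjusted p over all alternatives of 0.000873 and 0.95, 0.000186 and 1, and 0.00285 and 1, and that of Os02g0280400 was kept, with adjusted p of 9.52e-16 to 0.00281. The call of bin 3 of Os07g0619200 was also lost with all libraries kept. Its adjusted p was 0.206 with voom and diffSplice, and 0.128 with diffSpliceDGE on bins with a mean of 20 or more. Of the 42 loci, 28 were also higher in leaf in level, 1 was higher in panicle and 13 were not called. Of all loci tested for level, 21.3% were called higher in leaf and 8.75% higher in panicle. Those shares were not taken over the loci tested for usage, and the level is itself the total over the bins.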

How the data were processed

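Libraries were made with the TruSeq RNA kit, per the labels' protocols. The submitters' processing notes name HTSeq, TopHat2 2.0.4 and the build IRGSP-1.0 without saying what each served. The deposited values are raw counts per exon bin, whole numbers that the authors did not normalize. A read over several bins can count in each. The strand setting is not given in the sources used here, so reads of antisense and overlapping loci may not be separable. The 5 rows that name no gene (14% to 15.8% of counts in these libraries) were left out.

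Bin counts were summed per locus. Loci passing filterByExpr (minimum count 10, 1 library enough) went through edgeR 4.0.16 (R 4.3.3, with TMM, glmQLFit and glmQLFTest), in a single fit of the 7 libraries by tissue, which leaves 3 residual degrees of freedom. Benjamini-Hochberg adjustment ran over all tested loci. The SE was obtained by dividing the size of the log2 fold change by the root of F. Exon usage was tested with diffSpliceDGE and called at an adjusted Simes p under 0.05. Floors are 3 counts per tissue, and 95% Poisson limits cover counting error only. The steps were also run on simulated counts with the same spread at all loci. That run does not bear on calls affected by uneven replicates.

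Neither the files nor the RefSeq table (ASM3414082v1) pairs locus IDs with symbols. Names follow published rice nomenclature as recalled, and were kept where the symbol or a synonym occurs once on the same chromosome in RefSeq (105 of 159 loci). The order of the IDs was checked afterwards, with 0 of 93 neighbouring pairs out of order. Members and lists were chosen with earlier results of these data known. Values are given for up to 6 members per list with the highest mean CPM in the higher tissue, for members called against their list, and for all MADS-box, YABBY and marker loci. CHLG, OSH3, OSH10 and OSH43, and PORB, GLK2, TOB1, CAB2R and PsaH for their bin shifts, were chosen after their values were seen. The rule also asked for 4 loci per direction outside the lists, which have no name and are not printed, and for 5 bins per direction, of which 2 are given. A listed locus is not reported here.

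Alternatives were DESeq2 1.42.0, RLE factors, no count filter, only the largest bin, the leaf and panicle libraries alone, no fold minimum, no loci among the 100 most abundant, a replicate block and each library left out, and for usage also voom with diffSplice (limma 3.58.1), an F test and bins with a mean of 20 or more.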

Additional observations from a re-analysis of the deposited data

How the results depend on the processing

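Of the 70 named loci called for level, none changed direction in an alternative that tested it. Of the 70, 63 had a value in all 12 alternatives, and the other 7 are among the 100 most abundant loci, which 1 alternative leaves out. In all, 18 lost their call in at least 1, all 18 of them without a library and 2 also elsewhere (1 with DESeq2, 1 with the largest bin). Of the uncalled named loci, 16 gained a call in some alternative. Level counts without 1 library ran from 3481 to 4401 (8040 with all), from 3076 to 3356 for higher in leaf (5696) and from 350 to 1123 for higher in panicle (2344), and 4203 were higher in panicle with the leaf and panicle libraries alone. Usage calls without 1 library ran from 6 to 10 (42 with all), and voom with diffSplice called 69. Deviations of same-numbered libraries correlated at 0.111 between leaf and panicle, 0.208 between leaf and seed and 0.0472 between panicle and seed, which was not taken as pairing. With the replicate block 8739 loci were called for level and 53 for usage, and no named call was lost.

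Signs of uncalled log2 fold changes turned for MADS56, EF1A, ACT1, MADS55 and EAT1, and MADS21, with no count in panicle 2, reached 0 without panicle 1. Without 1 library the value ran from -0.11 to 0.32 for MADS56, from -0.09 to 0.45 for EF1A, from -1.15 to 0.44 for ACT1, from -1.28 to 2.05 for MADS55, from -3.71 to 2.34 for EAT1 and from -5.48 to 0 for MADS21. MADS56 was at -0.07 with the largest bin and without the 100 most abundant loci, and EF1A at -0.01 without those loci. The causes were not tested. With 2 libraries per tissue, a fit that leaves 1 out takes the lone library to vary like the others. MADS21 had 7 counts in all, and with all libraries no difference was detectable at this depth.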
